A study of Mus musculus with 3 samples.

Results

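In cultured cardiac myofibroblasts, Hmox1 mRNA was over 2-fold higher and Nqo1 mRNA over 2-fold lower in suspension than on plastic, while the other 8 antioxidant genes of the NRF2 response lay within 2-fold of their adherent level. For Prdx1 this depended on the probe and the scaling. The 10 genes were Hmox1, Nqo1, Gclc, Gclm, Srxn1, Txnrd1, Slc7a11, Nfe2l2, Keap1 and Prdx1, named as a list of the NRF2 response and found on the arrays through the RefSeq accession of each probe. They were 10 of the 15394 genes with a probe well above background on at least 1 array. Hmox1 and Prdx1 each had 2 probes and the other 8 genes 1 probe each, and all 12 probes were well above background on all 3 arrays, so no member was lost to the filter on dim probes.

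NRF2, the product of Nfe2l2, is a transcription factor that is held in the cytoplasm and marked for degradation by KEAP1. Oxidants and electrophiles modify cysteines of KEAP1, whereupon NRF2 accumulates, pairs with small MAF proteins and binds antioxidant response elements in the genes it activates. Those genes make glutathione, run the thioredoxin system, detoxify quinones and break down heme. In the injured heart, infiltrating leukocytes and ischaemic tissue release oxidants, and the response is known there as a protective one.

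The cells were cardiac myofibroblasts, the contractile, matrix-producing cells of the infarct. They came from male C57BL/6J mice whose left anterior descending coronary artery had been permanently tied off and whose hearts were taken at 3 days. The age is given as 8 weeks in one label and 10 weeks in another. Per the labels, digested heart cells that had attached to plastic overnight were depleted of cells bearing CD45, a leukocyte surface protein, and the CD45-negative cells were taken as myofibroblasts. Adherent cells were grown on plastic plates, non-adherent cells were grown in suspension, and re-adherent cells were put back on plastic after suspension. The methods of the study describe these states as taken one after another, with detachment by trypsin before suspension and a loss of cells during it. Time in culture, the selection of surviving cells and the state of adhesion therefore cannot be told apart. Each state had 1 array, made per the design text from RNA mixed from several hearts, so the differences carry no replicate check and no p-value.

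The promoters of the members are shown first because NRF2 acts through a short DNA element. RefSeq sequences of GRCm38.p6 gave a window of 300 bases, from 250 before to 50 after a start site, for 8 of the 10 members, with 10 windows in all since Txnrd1 has several start sites. Hmox1 and Gclc had no entry. The core of the antioxidant response element, TGACNNNGC on either strand, was matched in 12.4% of all 32851 windows. Of the 10 member windows it was matched in 5, those of Nfe2l2, Gclm, Srxn1 and Prdx1 and 1 of those of Txnrd1. A variant with G at the fourth base, TGAGNNNGC, was matched in 17.6% of all windows and in 3 of the 10, those of Srxn1, Slc7a11 and Prdx1. The related AP-1 site, TGANTCA, was matched in 7.81% of all windows and in 2 of the 10, those of Srxn1 and Prdx1. The windows of Nqo1 and Keap1 held none of the 3 motifs, which says only that these letters are not in these windows. The 250 bases before the start site are given for Nqo1, the member that was lower in suspension, and for Srxn1 and Prdx1, the members with the most matches. They are read 5′ to 3′ on the strand of the gene, and capitals mark matches to TGACNNNGC or TGAGNNNGC, while AP-1 matches outside them are in lower case.
Nqo1 (chr8:107403206-107403455, minus strand): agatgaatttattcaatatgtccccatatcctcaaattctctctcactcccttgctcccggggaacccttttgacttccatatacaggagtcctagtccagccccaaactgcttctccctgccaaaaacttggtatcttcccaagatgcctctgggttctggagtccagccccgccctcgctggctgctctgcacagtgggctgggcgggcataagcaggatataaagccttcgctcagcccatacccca
Srxn1 (chr2:152105274-152105523, plus strand): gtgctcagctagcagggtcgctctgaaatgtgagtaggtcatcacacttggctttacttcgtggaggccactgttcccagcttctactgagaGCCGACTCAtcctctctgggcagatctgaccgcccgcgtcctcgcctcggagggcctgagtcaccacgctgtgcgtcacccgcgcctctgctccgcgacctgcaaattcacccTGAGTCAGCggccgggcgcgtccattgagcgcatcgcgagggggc
Prdx1 (chr4:116685349-116685598, plus strand): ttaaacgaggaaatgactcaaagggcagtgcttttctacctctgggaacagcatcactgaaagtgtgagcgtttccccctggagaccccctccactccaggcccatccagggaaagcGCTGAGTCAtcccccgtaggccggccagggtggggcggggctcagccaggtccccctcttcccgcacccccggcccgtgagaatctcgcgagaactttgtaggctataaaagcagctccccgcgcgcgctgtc
In Prdx1 the match at -133 to -125 from the start site is the core element, and it contains an AP-1 match at -131 to -125. In Srxn1 the match at -45 to -37 is the variant and contains an AP-1 match at -45 to -39, and the variant at -158 to -150 stands alone. The core match of Srxn1 lies after the start site, at 29 to 37, and is not in the printed stretch. These matches are a description of the sequence, and binding was not measured.

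The values below are processed signals, in intensity units of the array scanner after background subtraction, and log2 differences between arrays after each array was scaled to its 75th percentile (651 units for adherent, 697 for non-adherent and 541 for re-adherent cells). The ± value of a difference joins the scanner software's errors for the pair of spots, which are technical and say nothing of other cultures. It was about 0.20 on the log2 scale for all members except Slc7a11. Probes spotted 10 times gave a smaller technical estimate, a median SD between spots of 0.06 to 0.08 for a difference. The lowest signals well above background were 14.0 to 18.3 units, and none of the spots used was saturated. The slide and the scan were common to the 3 arrays. Spots lying within 6 rows and 6 columns of a member's spot had median differences between -0.26 and 0.37.

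Over 2-fold was used as the call, without a test. In suspension against adherent cells, 1 member was over 2-fold higher, against 17.2% of all genes, and 1 member was over 2-fold lower, against 14.7% of all genes. From suspension to re-adhesion, 1 member was over 2-fold higher, against 15.6% of all genes, and 1 was over 2-fold lower, against 16.3%. Between re-adherent and adherent cells no member passed 2-fold in either direction, where 4.84% of all genes were higher and 4.9% lower. The counts of members are close to what these shares give for 10 genes. The shares move with the scaling: with spike-in scaling they were 13.7% higher and 20.7% lower in suspension, 11.7% and 20.2% on re-adhesion, and 2.34% and 12.1% between the attached states, and without scaling 9.9% and 23.4% on re-adhesion. The median difference of the 10 members was 0.50 in suspension, where the median of all genes was -0.07. It was -0.38 on re-adhesion, where the median of all genes was 0.08, and 0.11 between re-adherent and adherent cells, where it was 0.06. Both steps use the non-adherent array, so a high or low signal there moves them in opposite directions.

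**Figure D1:**
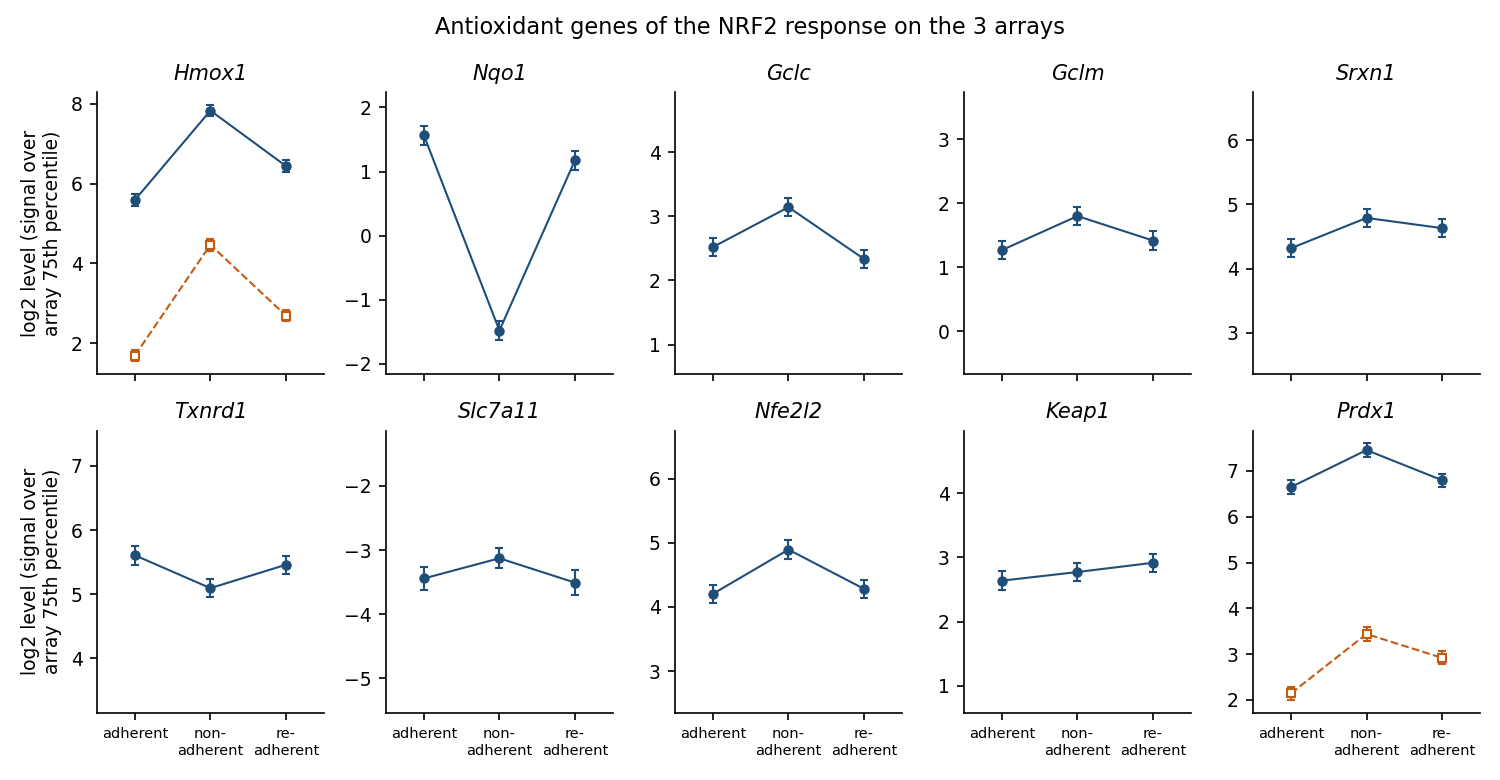
Level of each antioxidant gene on the 3 arrays, as log2 of the signal over the array's 75th percentile, with bars for the software's error of 1 spot. Each panel has its own range, and the dashed orange lines are the second probes of Hmox1 and Prdx1. Nqo1 dips on the non-adherent array and Hmox1 peaks there, while Keap1 is nearly flat.

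Nqo1, the quinone reductase long used as the reporter of NRF2 activity, was the member with the largest change. Its signal was 1924 units in adherent cells, 249.98 in non-adherent cells and 1223 in re-adherent cells. The non-adherent value was far below those of both attached states. After scaling, Nqo1 was 8.24-fold lower in suspension (log2 difference -3.04 ± 0.21) and then rose 6.29-fold on re-adhesion (2.65 ± 0.21). Of 15394 genes, 352 had a larger fall in suspension and 561 a larger rise on re-adhesion. Re-adherent cells differed from adherent cells by -0.39 ± 0.20 (log2).

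Hmox1, the inducible heme oxygenase that breaks heme down to biliverdin, iron and carbon monoxide, went the opposite way on both of its probes. The first probe gave 31331 units in adherent, 158599 in non-adherent and 47038 in re-adherent cells. The second, dimmer probe gave 2095, 15366 and 3493 units in the same order. The non-adherent array was highest on both probes, and the re-adherent array lay above the adherent array. Hmox1 rose 4.73-fold in suspension on the first probe (2.24 ± 0.20) and 6.85-fold on the second (2.78 ± 0.20). On re-adhesion it fell, with log2 differences of -1.39 ± 0.20 and -1.77 ± 0.20. Re-adherent cells were still 0.85 ± 0.20 above adherent cells on the first probe and 1.00 ± 0.20 on the second, which is 1.81-fold and 2.00-fold. In suspension 936 genes had a larger rise than Hmox1, and on re-adhesion 1733 genes had a larger fall. Nqo1 and Hmox1 thus both passed 2-fold in each step, with opposite signs. They did so under each of the alternative settings tried, although those on filters, low signals and flagged spots could not change their values.

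Among the regulators, Nfe2l2 was higher in suspension but under 2-fold. Its signal was 12004 units in adherent, 20718 in non-adherent and 10537 in re-adherent cells. The log2 difference was 0.69 ± 0.20 into suspension and -0.61 ± 0.20 on re-adhesion, and the 2 attached states differed by 0.08 ± 0.20. Nfe2l2 mRNA is not a measure of NRF2 protein, which is controlled mainly by its degradation. Keap1, the sensor, gave 4050.3, 4759 and 4087 units in the same order. Its differences were 0.13 ± 0.20, 0.14 ± 0.20 and, between the attached states, 0.28 ± 0.20, so none reached 2 times its technical error. The sign of the first of these turned under spike-in scaling (-0.11), and that of the second without scaling (-0.22), with the authors' values and with spike-in scaling.

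None of the 3 glutathione genes of the list passed 2-fold in suspension. Gclc, the catalytic subunit of glutamate-cysteine ligase, gave 3736 units in adherent, 6150.0 in non-adherent and 2731 in re-adherent cells. It was 1.54-fold higher in suspension (0.62 ± 0.20) and 1.75-fold lower on re-adhesion (-0.81 ± 0.20), below its adherent level by 0.19 ± 0.20. Gclm, the modifier subunit of the same enzyme, gave 1568, 2423 and 1445 units, with differences of 0.53 ± 0.20 and -0.38 ± 0.20. Both subunits were highest on the non-adherent array. With spike-in scaling the difference of Gclm in suspension was 0.28, under 2 times its error, and that of Gclc was 0.38. Slc7a11, the cystine importer that feeds glutathione synthesis, was dim, at 59.9, 79.7 and 47.6 units. Its differences of 0.31 ± 0.23 and -0.38 ± 0.25 were under 2 times their technical error. On re-adhesion Gclc passed 2-fold downwards without scaling, with the authors' values and with spike-in scaling (-1.03 to -1.17), settings that also moved the median of all genes down.

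The 3 members of the thioredoxin system did not move alike. Prdx1, a peroxiredoxin that reduces hydrogen peroxide, gave 65302 units in adherent, 122216 in non-adherent and 60251 in re-adherent cells on its first probe. The second probe gave 2879, 7560.0 and 4095 units. Both probes were highest on the non-adherent array. The log2 difference in suspension was 0.81 ± 0.20 on the first probe and 1.29 ± 0.20 on the second, so Prdx1 counted as over 2-fold higher on the second probe only. The scaling mattered as well: on the first probe quantile normalization gave 1.28 in suspension, and on re-adhesion Prdx1 passed 2-fold downwards without scaling (-1.02) and after quantile normalization (-1.39). On re-adhesion the probes gave -0.66 ± 0.20 and -0.52 ± 0.20, and re-adherent cells stood above adherent cells by 0.15 ± 0.20 and 0.77 ± 0.20. Srxn1 encodes sulfiredoxin, the enzyme that repairs over-oxidised peroxiredoxins. It gave 12974, 19265 and 13402 units, with differences of 0.47 ± 0.20 and -0.16 ± 0.20. With spike-in scaling its difference in suspension was 0.23, under 2 times its error. Txnrd1, the cytosolic thioredoxin reductase, gave 31711, 23780.1 and 23799.7 units. It was lower in suspension by 0.51 ± 0.20 and higher on re-adhesion by 0.37 ± 0.20 after scaling. Without scaling the later difference of Txnrd1 was 0.0012, so its return rests on the scaling. Txnrd1 was measured by a probe to 1 of its transcripts.

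**Figure D2:**
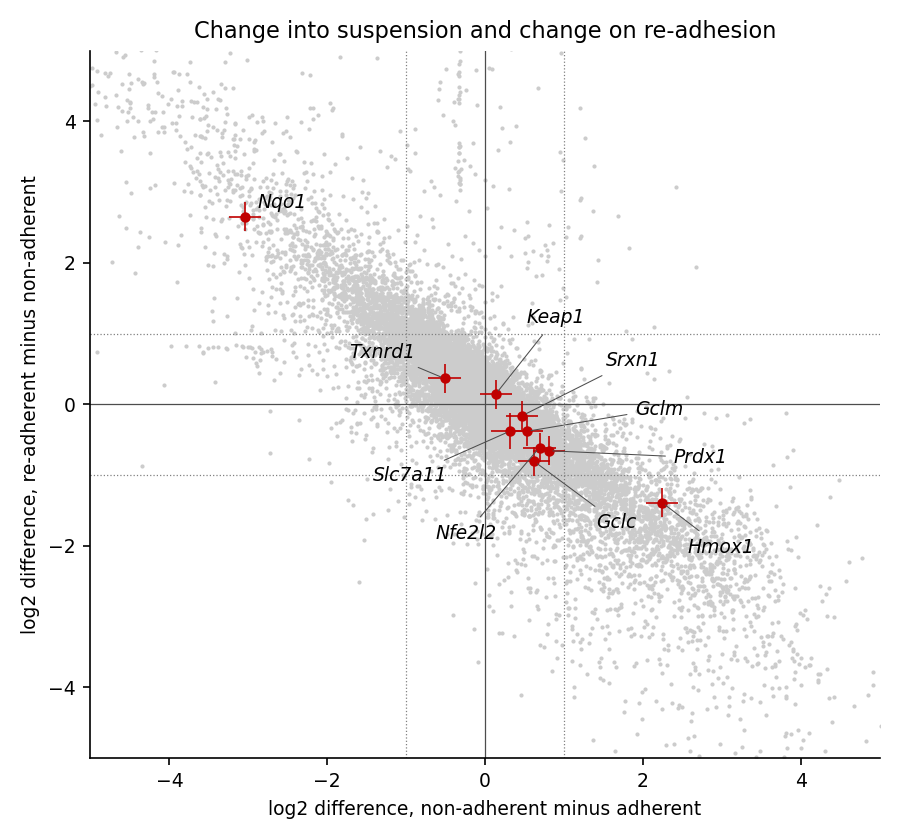
Each point is a gene, with its log2 difference into suspension on the horizontal axis and on re-adhesion on the vertical axis; the 10 members are red with technical error bars, all 15394 genes are grey, and dotted lines mark 2-fold (192 genes lie outside the axes). Both axes share the non-adherent array. Nqo1 sits at the upper left and Hmox1 at the lower right, and the other 8 members lie inside the 2-fold lines.

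Comparing re-adherent with adherent cells leaves the non-adherent array out. All 10 members lay within 2-fold on the probes used, from -0.39 for Nqo1 to 0.85 for Hmox1, and 6 were higher and 4 lower. The second probe of Hmox1 gave 1.00, which is 2.00-fold and just past the call. Spike-in scaling moved the median of all genes in this pair by -0.47, so the signs of the small differences depend on the scaling. Under it the differences of Gclm, Srxn1, Nfe2l2, Keap1 and Prdx1 turned negative, and that of Slc7a11 turned positive with the normexp correction. Hmox1 kept its sign in every setting, from 0.39 to 1.00, as did Nqo1, from -0.85 to -0.39.

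The wider NRF2 network was described through 7 lists of 111 genes, of which 109 were measured. In suspension 31 of them (28.4%) were over 2-fold higher and 21 (19.3%) over 2-fold lower, with a median of 0.29, where 17.2% and 14.7% of all genes were called. On re-adhesion 26 (23.9%) were higher and 28 (25.7%) lower, where the shares of all genes were 15.6% and 16.3%. Between re-adherent and adherent cells 4 (3.67%) were higher and 6 (5.50%) lower, near the 4.84% and 4.9% of all genes. The counts of the single lists stand against the same shares. The list of sensor and partner genes held 13 measured genes, 5 over 2-fold higher in suspension and 2 lower, with a median of 0.12 that was -0.12 with spike-in scaling. Spike-in scaling and the normexp correction each left 2 higher. Of these 5, Nfe2 and Nfe2l3, named after their values were seen, passed the background filter through the non-adherent array alone, and Btrc had 2 probes that disagreed (1.03 and -0.49). The products of the small MAF genes pair with NRF2. Maff fell by 3.34 and Mafk fell by 1.57 (log2) when cells left the plate, and on re-adhesion they rose by 3.77 and 1.77, while Mafg, chosen after its value was seen, differed by 0.89 and -0.66. Bach1, a repressor that competes for the same elements and is displaced by heme, rose by 1.13 and then fell by 1.48. Sqstm1, which encodes the autophagy receptor p62 that binds KEAP1, rose by 1.17 in suspension and then differed by -0.41. With spike-in scaling Bach1 and Sqstm1 were within 2-fold in suspension (0.88 and 0.92).

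Other known NRF2 targets went both ways. Of 29 measured, 4 were over 2-fold higher in suspension and 7 lower, with a median of 0.37. Those with the widest range were all lower in suspension. Me1, the malic enzyme that makes NADPH, fell by 2.17 and rose by 2.61 on re-adhesion. Gsta2 and Gsta4, glutathione transferases, fell by 3.27 and 2.29 and rose by 1.25 and 1.19, and both stayed over 2-fold below the adherent level (-2.02 and -1.10). Gsta2 gave 194, 21.5 and 39.7 units in adherent, non-adherent and re-adherent cells. The non-adherent and re-adherent signals were not far above the lowest signals well above background there (14.0 and 18.3), so the size of its differences is uncertain. Ephx1, the microsomal epoxide hydrolase, fell by 1.22 and rose by 2.36, to 1.14 above adherent cells. The last difference of Gsta4 and that of Ephx1 lay within 2-fold under some scalings, at -0.82 and 0.67 nearest to 0. On re-adhesion 8 of the 29 were over 2-fold higher and 4 lower, but 4 and 5 without scaling, 5 and 5 with the authors' values and 6 and 5 with spike-in scaling. Their median there was 0.20 and was below 0 with other scalings, -0.17 without scaling and -0.15 after quantile normalization. Ferritin light chain, Ftl1, was measured by 2 probes that disagreed in suspension (-0.01 and 1.19).

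Genes of glutathione synthesis and use went both ways, with 4 of 16 over 2-fold higher in suspension and 5 lower, and a median of 0.15 that was -0.10 with spike-in scaling. Gpx2, a glutathione peroxidase, rose by 2.25 and Mgst3, a microsomal glutathione transferase, by 2.11. Gpx8, a peroxidase of the endoplasmic reticulum, fell by 2.03 and Chac1, which degrades glutathione, by 1.41. All 4 went back past 2-fold on re-adhesion: Gpx2 fell by 2.15, Mgst3 fell by 1.08, and Gpx8 and Chac1 rose by 2.27 and 2.10. The thioredoxin and peroxiredoxin list, Prdx1 and Txnrd1 apart, had 1 of 13 genes over 2-fold higher in suspension, none lower and a median of -0.51, and with spike-in scaling 3 lower and a median of -0.76. That gene was Sesn1, a stress-induced sestrin, which rose by 2.84 and fell by 2.41. All 5 other peroxiredoxins were lower in suspension, by 0.51 for Prdx5 to 0.78 for Prdx6, where Prdx1 was higher. They lay within 2-fold, save Prdx6 with spike-in scaling (-1.02). Prdx3, Prdx4 and Prdx6 were looked at after their values were seen. On re-adhesion Txn2, mitochondrial thioredoxin, was higher by 1.23, and Prdx2 and Prdx5 differed by 0.99 and 1.00. The list then had 2 genes over 2-fold higher, but 0 without scaling, with the authors' values or after quantile normalization, where Txn2 too was within 2-fold.

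Heme and iron genes were mostly higher in suspension, as Hmox1 was. Of 12 measured, 11 were over 2-fold higher in suspension and none lower, with a median of 1.42. Slc40a1, the iron exporter ferroportin, rose by 3.36, Steap3, an endosomal ferrireductase, by 2.88, Hpx, the heme-binding hemopexin, by 2.21 and Blvra, the biliverdin reductase that follows heme oxygenase, by 2.07. On re-adhesion 8 of the 12 fell over 2-fold, with a median of -1.39, among them Hpx by 2.72 and Slc40a1 by 1.31. Slc40a1 was still 2.06 above adherent cells after re-adhesion. In this list only Fech, ferrochelatase, which inserts iron to make heme, was lower in suspension, by 0.45, and it is named as the sole exception. The list leaves out Fth1, Ftl1 and Blvrb, also genes of iron and heme, which were counted with the other NRF2 targets. In suspension Fth1 differed by 0.46, Ftl1, whose probes disagreed, by -0.01 on the probe used, and Blvrb by 1.47.

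Genes of the ATF4 amino acid response were more often lower than higher in suspension. ATF4 is a stress factor that also acts on Slc7a11. The list held amino acid genes, other stress-response genes and Atf4 itself. Of 13 measured, 6 were over 2-fold lower in suspension and 1 higher, with a median of -0.63, and on re-adhesion 7 were higher and 2 lower, with a median of 1.57. Phgdh, the first enzyme of serine synthesis, fell by 2.99 and rose by 3.76. Asns, asparagine synthetase, fell by 2.30 and rose by 2.57, and Cth, which makes cysteine from cystathionine, fell by 2.72 and rose by 2.55. Cth was dim, at 148, 24.1 and 110 units in adherent, non-adherent and re-adherent cells, so the size of its differences is less certain. The 1 higher gene was Atf3, a stress-induced transcription factor, which rose by 3.06 and fell by 2.40.

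**Figure D3:**
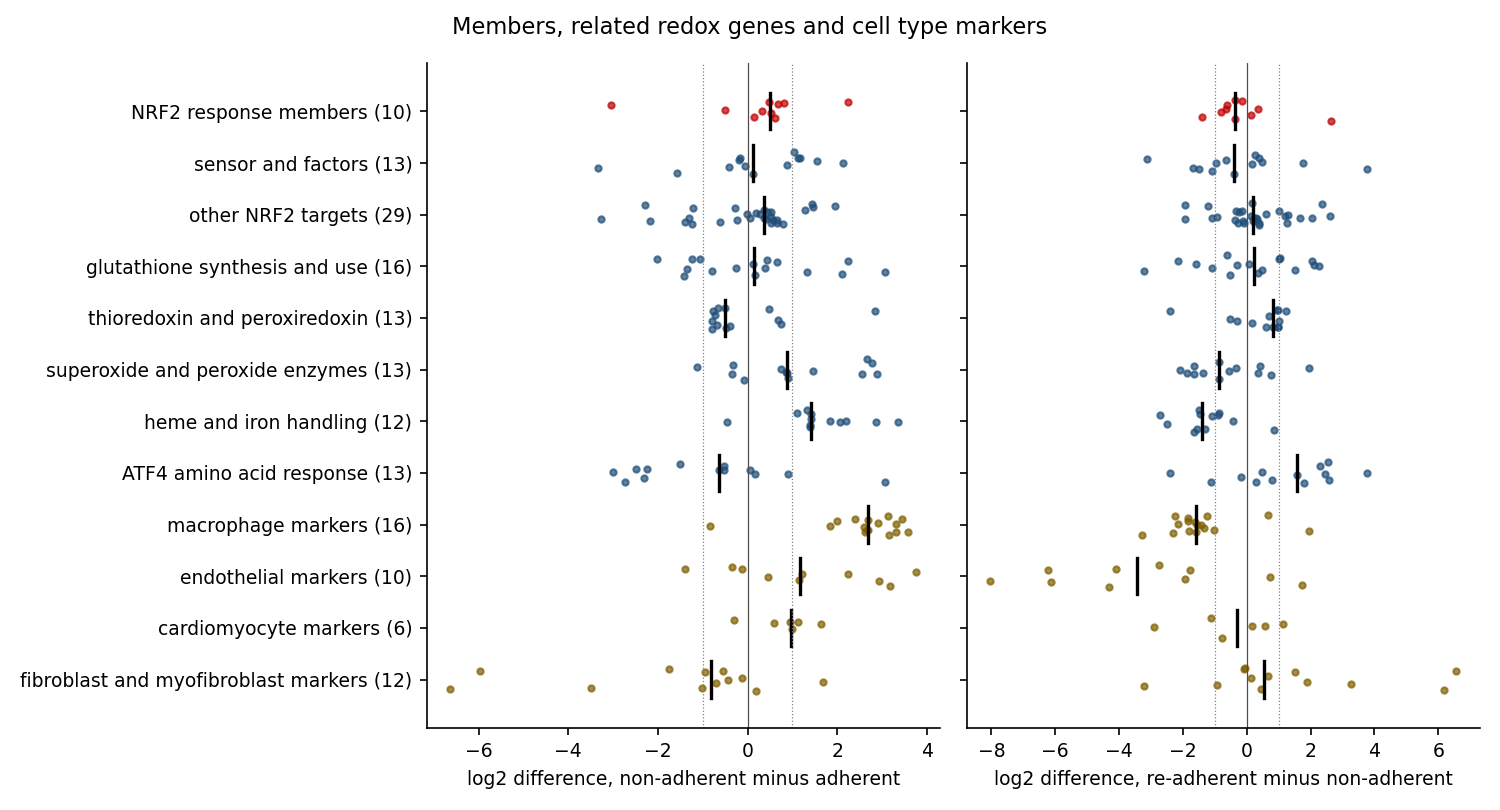
Log2 differences of the members (red), related redox lists (blue) and cell type markers (brown) into suspension and on re-adhesion, with a point for each measured gene, a black bar for the median of a list, its number of genes in brackets and dotted lines at 2-fold. The heme and iron list and the macrophage markers lie mostly to the right of 0 in suspension and to the left on re-adhesion, and the ATF4 list the reverse.

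Markers of leukocytes moved with Hmox1 on these arrays. Hmox1, Slc40a1 and the subunits of the phagocyte NADPH oxidase are known to be abundant in macrophages. Of 18 macrophage markers, 16 were measured and all 16 were well above background on all 3 arrays, including Ptprc, the gene of CD45, although the cells had been depleted of CD45. In suspension 15 of the 16 were over 2-fold higher, with a median of 2.69, and on re-adhesion 14 were over 2-fold lower, with a median of -1.60. Cx3cr1, the fractalkine receptor, went the other way on re-adhesion and rose by 1.95 there after a rise of 2.67. The exception in suspension was Itgam, whose 3 probes disagreed (-0.84 to 1.96). The summed signal of the markers, in multiples of the array's 75th percentile, was 367 in adherent, 2034 in non-adherent and 629 in re-adherent cells. That of the 10 members was 253, 514 and 304. Its rise and fall came mostly from Hmox1 and Prdx1, while Nqo1 and Txnrd1 were lower in suspension. In the list of superoxide and peroxide enzymes, 5 of 13 were over 2-fold higher in suspension and 1 lower, with a median of 0.88, and on re-adhesion 1 was higher and 5 lower, with a median of -0.85. Among them the oxidase subunits Cybb, Ncf1 and Ncf4 rose by 2.77, 2.89 and 2.55 in suspension and had differences of -1.88, -1.66 and -1.64 on re-adhesion. Re-adherent cells, in which Hmox1 stayed above its adherent level, had 8 of 16 macrophage markers over 2-fold above adherent cells, with a median of 1.01, and with spike-in scaling 5 of 16 with a median of 0.54. In RNA from mixed cells, fewer cells of a type and less RNA per cell cannot be told apart. The part of macrophage RNA in the differences of Hmox1 and the other members was not tested.

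Fibroblast markers were present throughout, with all 12 well above background on all 3 arrays. Their summed signal was 2655, 1016 and 2587 in adherent, non-adherent and re-adherent cells. Most of the fall of this sum came from Acta2 and Tagln. In suspension 1 was over 2-fold higher and 5 lower, with a median of -0.82. On re-adhesion 5 were over 2-fold higher and 1 lower, with a median of 0.55 that was -0.13 after quantile normalization. Acta2 and Tagln, genes of the contractile apparatus of myofibroblasts, had differences of -6.64 and -5.98 in suspension and rose by 6.57 and 6.18 on re-adhesion, the same directions as Nqo1. Thy1, a fibroblast surface marker, fell by 3.50 and rose by 3.27, and Dcn, a matrix proteoglycan, rose by 1.69 and fell by 3.20. Col1a1, a fibrillar collagen chain named after its values were seen, differed by -0.70 and 0.44, the latter turning to -0.37 after quantile normalization. Endothelial markers had a summed signal of 36.9, 40.5 and 39.0. In suspension 6 of 10 were over 2-fold higher, and on re-adhesion 8 were over 2-fold lower. In the attached states the sum came mostly from Kdr and Eng, which went against most of the list. Between re-adherent and adherent cells 7 of 10 were over 2-fold lower, with a median of -1.99, and 4 with the normexp correction. In re-adherent cells 3 were not well above background. Kdr had 2 probes that disagreed (-0.35 and 1.96 in suspension). Cardiomyocyte markers, Tnnt2 apart, were dim, with 6 of 9 measured and a sum of 1.27, 2.02 and 3.46. Most of this sum came from Tnnt2, at 593, 955 and 1646 units in adherent, non-adherent and re-adherent cells. The part of these cell types in the differences of the members was not tested either.

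The genes whose pattern over the 3 arrays was most like that of a member were sought for Nqo1 and Hmox1, the members with the widest range. Likeness was the Euclidean distance between log2 levels after each gene was centred on its own mean, over 13478 genes well above background on all 3 arrays. For Nqo1 the nearest were Cldn12, a claudin (distance 0.05), Spry1, an inhibitor of growth factor signalling (0.07), and Fermt2, the kindlin-2 adaptor of integrins (0.07). For Hmox1 they were Bhlhe41, a circadian repressor (0.04), Snx8, a sorting nexin (0.04), and Ctsf, a lysosomal cathepsin (0.04). These distances are smaller than the technical error of a difference. With only 3 arrays and this many genes, near neighbours are easily found, and shared regulation was not tested.

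**Figure D4:**
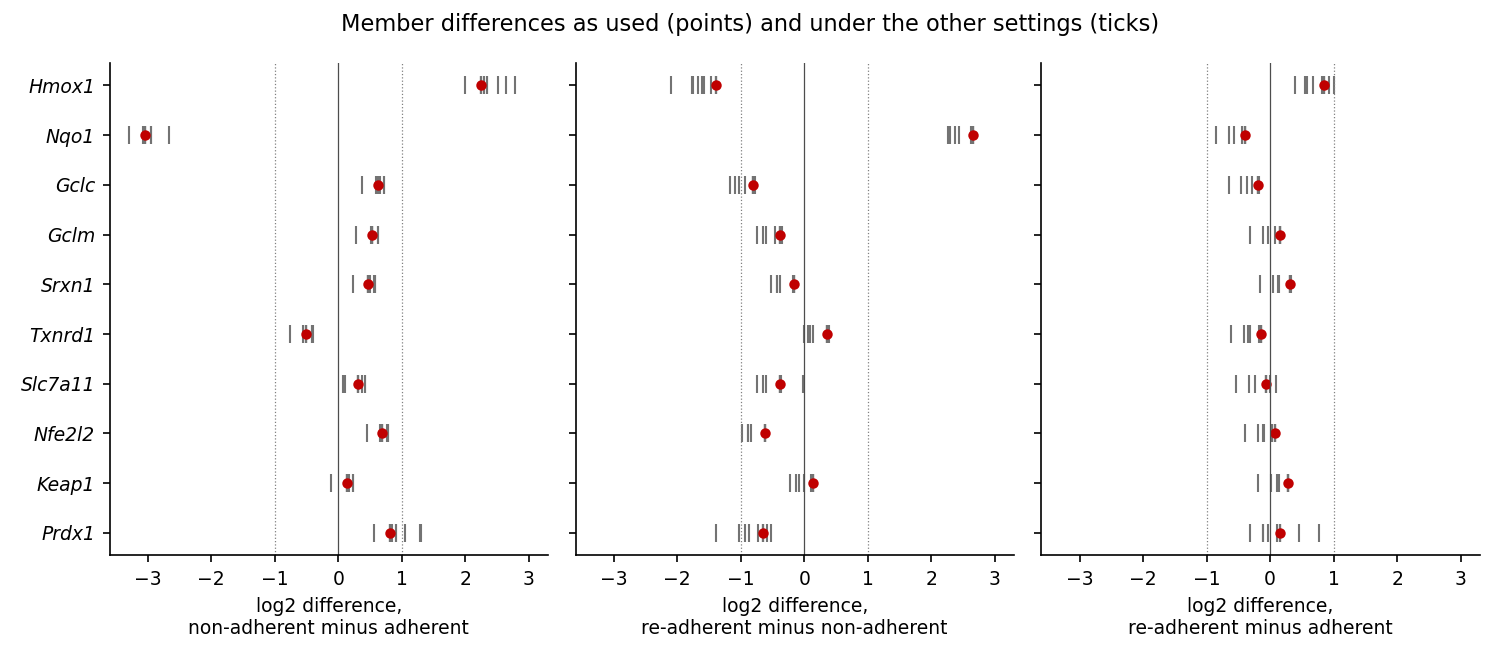
Log2 difference of each member in the 3 pairs of arrays, with the reported value as a red point and the values under the other settings as grey ticks, which for Hmox1 and Prdx1 include the second probe. Dotted lines mark 2-fold. In the first and second panels Hmox1 and Nqo1 stay outside the 2-fold lines under every setting, Prdx1 and Gclc cross a line in some, and Keap1 crosses 0. In the third panel the second probe of Hmox1 reaches 1.00, and Gclm, Srxn1, Slc7a11, Nfe2l2, Keap1 and Prdx1 cross 0.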

How the data were processed

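RNA from 3 states of cardiac myofibroblasts was measured on 1-colour Agilent SurePrint G3 mouse arrays, 1 array a state. The deposited scanner files hold spot intensity from Agilent Feature Extraction 10.10.1.1, background-subtracted by the software, with spot errors and flags. The authors' value table holds intensity too and equalled the processed signal times 1 constant per array (1.52, 1.52 and 1.62), so its scale is linear and not centred, and only the reason for the constants is unknown. How the authors chose them is not given in the sources used here.

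Here, the 75th percentile of the non-control spots of an array was subtracted from its signals on the log2 scale. Flagged spots (154 to 180 an array) were left out and spots of a probe averaged. Of 37881 transcript names, 21465 matched a RefSeq accession (GRCm38.p6), which named 27235 of 55681 probes. A gene took its probe with the highest mean among those well above background on at least 1 array. The array was designed on mm9, so no probe coordinates are given. Spots well above background numbered 31994 to 35538 an array, and the number of arrays limits the precision. Cross-hybridisation was not tested.

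Differences had no test. The alternatives were 5 array scalings or background corrections, probe choices, filters and folds of 1.5 and 4. The members and the lists were chosen with earlier results of these data known. Named were all 10 members, from each list up to 4 genes with the widest range that were well above background throughout, and the 3 genes nearest to the 2 members with the widest range. Scripts ran in R 4.3.3 with limma 3.58.1 and Python 3.11.15 with numpy 2.4.6, pandas 2.3.3 and matplotlib 3.10.9, and were tested on simulated data.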

Additional observations from a re-analysis of the deposited data

How the results depend on the processing

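Across the settings tried, 95 of 111 recomputed counts and medians of the members stayed close to the reported value and 16 moved. Part of the 95 was fixed in advance, because all member probes were unflagged and well above background on all 3 arrays. Changing the filter, raising low signals to the floor and keeping flagged spots therefore could not move a member's value. The count over 2-fold higher in suspension was 1 as reported, 2 after quantile normalization, 2 with the mean over the probes of a gene and 4 at 1.5-fold. The count over 2-fold lower on re-adhesion was 1 as reported, 3 without scaling, 2 with the authors' values, 2 after quantile normalization, 2 with spike-in scaling, 4 at 1.5-fold and 0 at 4-fold. Re-adherent against adherent, 1 member was higher at 1.5-fold and none as reported. The median of the members in suspension was 0.26 with spike-in scaling against 0.50. On re-adhesion it was -0.74 without scaling, -0.66 with the authors' values and -0.60 with spike-in scaling against -0.38. Re-adherent against adherent it was 0.11 and turned negative with 4 other scalings: -0.15 without scaling, -0.06 with the authors' values, -0.05 after quantile normalization and -0.35 with spike-in scaling. These settings also moved the median of all genes: spike-in scaling, from 6 E1A probes, by -0.25, -0.22 and -0.47 in suspension, on re-adhesion and between the attached states, no scaling by -0.36 on re-adhesion and -0.27 between the attached states, and the authors' values by -0.27 and -0.18 there.

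The normexp correction was planned on mean spot signals, which the files used here do not give, and was run on median signals instead, a choice made after seeing the data, as was the form relative to the median of all genes. Leaving out a replicate was not possible with 1 array a group. No paired analysis was possible because the 3 states have 1 array apiece. Slc7a11, the dimmest member, had the largest technical error.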
